A study of Homo sapiens with 13 samples.

Results

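Measured levels of NRF2 antioxidant genes were followed in 10 genes, namely NQO1, GCLC, GCLM, HMOX1, TXNRD1, SRXN1, AKR1C1, AKR1C2, AKR1C3 and FTH1. They were taken by symbol as well-known NRF2 targets, by a rule with no threshold on a measured value, and all 10 were found in 9 of the 38369 gene rows. The choice was made with earlier results of these data known. AKR1C1 and AKR1C3 shared 1 row with AKR1E2, SRXN1 shared a row with SCRT2, and the other 7 genes were alone in theirs. All 9 rows passed the filter on low values in both experiments.

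PolyA-selected RNA had been sequenced from MCF10A, an immortalised and non-tumorigenic human breast epithelial line, although the label for cell type reads breast cancer. The first experiment used MCF10A-Src cells, in which an added Src kinase becomes active under tamoxifen. It gave 1 library before tamoxifen (0 h), 2 after 4 h, 1 after 12 h and 2 after 36 h. The second used parental MCF10A cells harvested 72 h after transduction with the long intergenic RNA (lincRNA) LINC00520 (2 libraries) or left untransduced (3 libraries, which the sample descriptions call mock transduced). The questions were what Src activation and LINC00520 over-expression change in these cells. The time course had no untreated cells kept for the same time, so Src activity, tamoxifen and time in culture cannot be told apart. Likewise LINC00520 and transduction itself cannot be told apart, since the 2 samples with a control lincRNA were not analysed here. All groups carry the MCF10A background, grown with serum, EGF, insulin, hydrocortisone and cholera toxin. Whether replicates were separate cultures is not stated, so each p-value is set against a spread between libraries that may be technical only.

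NRF2, encoded by NFE2L2, is a transcription factor that KEAP1 holds in the cytoplasm and hands over for degradation in unstressed cells. Oxidants and electrophiles modify KEAP1, NRF2 then enters the nucleus, pairs with a small MAF protein and binds antioxidant response elements, where BACH1 acts as a repressor. Its targets make glutathione, regenerate thioredoxin, reduce quinones and carbonyls, and handle haem and iron.

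The core of the antioxidant response element was searched as TGACNNNGC on both strands of the RefSeq promoter windows of GRCh38.p14, each holding 250 bases before and 50 bases after a start. Of all 35116 windows, 13.3% held it. Of the 10 members, 8 had an entry, HMOX1 and FTH1 being those without one, and their 10 windows gave matches in 2 genes, GCLM and TXNRD1. These stretches are shown because they carry the only matches among the members. Each runs 5′ to 3′ on the gene's strand, holds the 250 bases before the start and the first transcribed base, and has the matched core in capitals. The GCLM stretch, chr1:93909430-93909680 on the minus strand, held 1 match on the opposite strand, beginning 34 bases before the start. The first TXNRD1 stretch, chr12:104215529-104215779 on the plus strand, held 1 match on that strand 99 bases before the start and 1 on the opposite strand 8 bases before it. The second TXNRD1 stretch, chr12:104286782-104287032 on the plus strand, held 1 match on the opposite strand 102 bases before its start.
GCLM: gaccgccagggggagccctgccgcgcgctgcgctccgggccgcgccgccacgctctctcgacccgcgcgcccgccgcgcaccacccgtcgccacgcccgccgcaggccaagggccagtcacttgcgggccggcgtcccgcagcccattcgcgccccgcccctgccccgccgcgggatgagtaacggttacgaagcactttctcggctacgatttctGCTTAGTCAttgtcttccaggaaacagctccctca
TXNRD1 first start: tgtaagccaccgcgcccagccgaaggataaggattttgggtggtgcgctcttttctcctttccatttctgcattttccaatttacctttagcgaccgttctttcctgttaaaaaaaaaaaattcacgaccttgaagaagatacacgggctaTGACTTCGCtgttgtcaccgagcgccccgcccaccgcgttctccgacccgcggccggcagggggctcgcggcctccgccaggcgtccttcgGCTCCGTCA
TXNRD1 second start: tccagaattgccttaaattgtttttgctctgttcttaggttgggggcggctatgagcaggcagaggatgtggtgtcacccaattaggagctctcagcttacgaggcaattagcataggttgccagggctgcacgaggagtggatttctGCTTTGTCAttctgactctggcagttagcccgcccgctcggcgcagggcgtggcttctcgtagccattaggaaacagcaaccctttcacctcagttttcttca
The AP-1 motif TGAGTCA, whose reverse complement can overlap the searched core, was in 4.95% of all windows and in 0 of the members' windows. A match describes these letters only, and the absence of one says nothing of elements farther from the start.

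Library depth ran from 12.6 to 52.3 M fragments. LINC00520, read from the row linc-TBPL2-2, held 5, 6 and 2 fragments in the untransduced libraries and 1122 and 1031 in the transduced ones. In the time course its fragments numbered 91 before tamoxifen, 30 and 22 after 4 h, 415 after 12 h, and 3346 and 2124 after 36 h. These libraries differ in depth. Scaled to library size (CPM, defined below), the row held 1.59 at 0 h, 1.56 and 0.93 at 4 h, 14.7 at 12 h, and 162 and 202 at 36 h. Breast epithelial markers were present in every library, KRT5 lying between 1022 and 2776 FPKM (fragments per unit of transcript length and of library size). TP63 was far lower, between 8.95 and 28.8 FPKM. The B-cell marker MS4A1 was at 0 in all 11 libraries. The summed level of the 10 epithelial markers moved with time, from 7775 CPM at 0 h to 11996 and 12081 at 4 h, 9407 at 12 h, and 4950 and 5275 at 36 h. CPM here is a library's fragments scaled to its size (counts per M) after edgeR's TMM scaling. The 7 fibroblast markers summed to 83.0 to 106 CPM up to 12 h and to 178 and 203 CPM at 36 h, and the 8 immune and blood markers to 16.4 CPM at 0 h and 67.7 and 106 CPM at 36 h. DCN rose at 36 h against 4 h (log2 1.75), as did CD68 (2.69) and CD14 (0.82), by edgeR. COL1A2 was at 0 in all 6 time-course libraries, and CD3E in 5 of them. Other markers of these lists were present in every library of both experiments. PDGFRA lay at 20.8 to 29.5 FPKM, CD68 at 5.29 to 53.1 FPKM and CD14 at 4.47 to 15.5 FPKM. Of the epithelial markers 8 of 10 were called lower at 36 h against 4 h. The part of these shifts in the 36 h results was not tested. In such bulk RNA, fewer cells of a type and less RNA per cell cannot be told apart.

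Per transcript length, the ferritin heavy chain FTH1 stood highest of the members in every group and the haem oxygenase HMOX1 lowest. In untransduced cells FTH1 averaged 3028 FPKM, NQO1 235, the shared AKR1C1/AKR1C3/AKR1E2 row 101, GCLC 61.1, AKR1C2 60.9, SRXN1 47.4, TXNRD1 31.8, GCLM 12.6 and HMOX1 1.34 FPKM. GCLC and AKR1C2 overlapped in their library values there, and no other neighbours in that order did. At 0 h of the time course the order was FTH1 (713 FPKM), NQO1 (222), TXNRD1 (93.5), the shared AKR1C row (82.5), AKR1C2 (70.2), GCLC (60.1), SRXN1 (32.2), GCLM (20.6) and HMOX1 (0.998). At 36 h NQO1 had dropped to 52.2 FPKM, below the shared AKR1C row at 90.3 FPKM, and GCLC to 15.5 FPKM, next to last. GCLM (16.3 to 22.1 FPKM) and SRXN1 (18.4 to 19.6 FPKM) overlapped at 36 h, and no other neighbours did. The tables of the 2 experiments were normalised separately, so levels set across them are not compared.

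Between 4 h and 36 h of tamoxifen, 5 of the 9 member rows fell at least 2-fold. These were NQO1, GCLC, TXNRD1, SRXN1 and AKR1C2, while FTH1 rose and GCLM, HMOX1 and the shared AKR1C row did not pass the test. By edgeR's quasi-likelihood test, with adjusted p under 0.05 over 15572 genes, 20.5% of all genes were lower, 18.8% were higher and 39.4% were called either way. The member rows had a median log2 fold change of -1.38, against -0.04 over all genes tested, and 9.89% of all genes were called and at least 2-fold lower. The 2 groups did not overlap in 8 of the 9 rows, nor in 71.1% of all genes tested. Scaling by library totals alone moved the median of all genes to -0.29 and changed the split of calls from 2930 higher and 3200 lower to 1861 higher and 4823 lower.

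**Figure D1:**
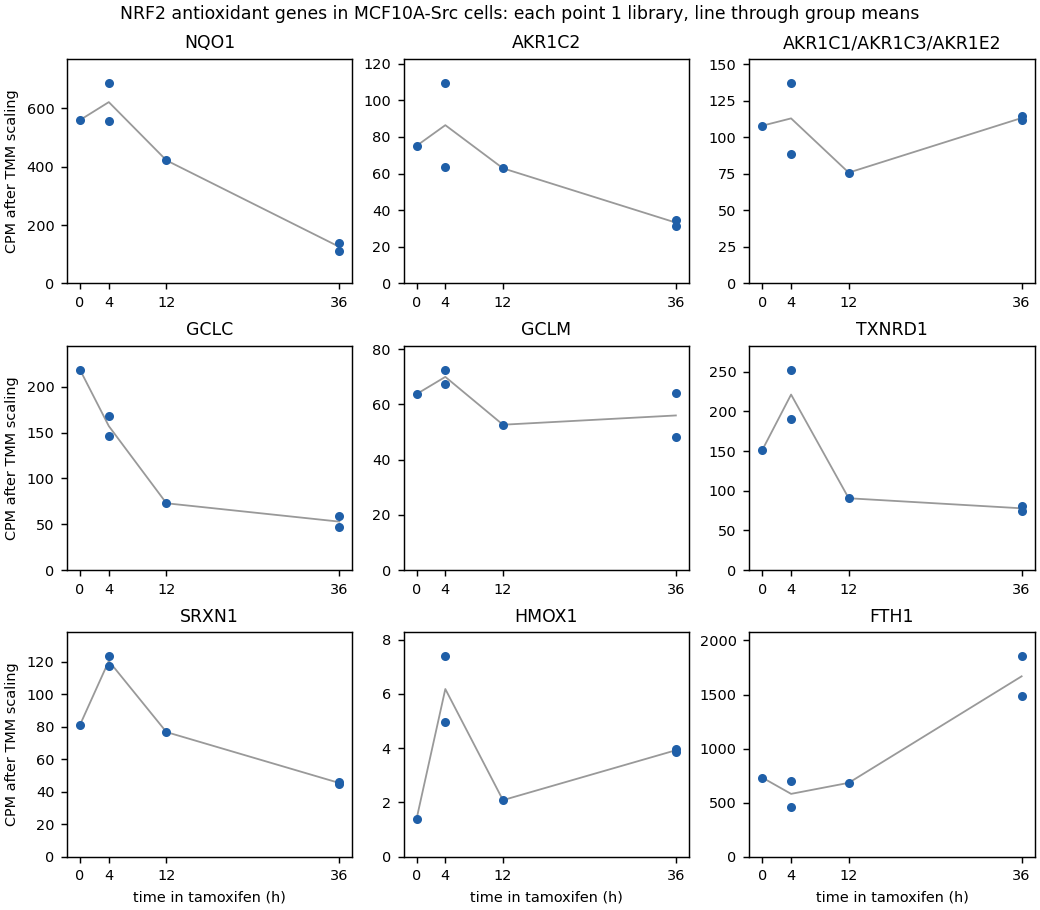
CPM after TMM scaling (vertical axis, from 0) against hours in tamoxifen (horizontal axis) for the 9 member rows; each point is 1 library and the line joins group means. NQO1, GCLC, TXNRD1, SRXN1 and AKR1C2 are lowest at 36 h, FTH1 is highest at 36 h (1484 and 1852 CPM), and HMOX1 is highest at 4 h (4.98 and 7.38 CPM).

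NQO1, a quinone reductase that uses NADPH and is widely read as a marker of NRF2 activity (hg19 chr16:69743305-69788829), stood at 560 CPM at 0 h. It was at 556 and 686 CPM at 4 h, 422 at 12 h, and 112 and 139 CPM at 36 h. Both 36 h libraries lay below every earlier one. The log2 fold change was -2.31 (SE 0.190, edgeR adjusted p = 1.24e-04) against 4 h and -2.16 (SE 0.213, edgeR adjusted p = 4.81e-04) against 0 h. At 12 h it did not pass the test (-0.41, adjusted p = 0.434 by edgeR). NOB1, whose row lies in the same locus, held 6.32% to 83.8% as many fragments as NQO1, with the highest share at 36 h.

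AKR1C1, AKR1C2 and AKR1C3 are aldo-keto reductases that reduce carbonyls and steroids, and they lie together on chromosome 10 (hg19 chr10:4868402-5149876). Their coding sequences, from GENCODE release 29, were nearly alike: AKR1C1 and AKR1C2 were 98.0% identical, AKR1C1 and AKR1C3 91.9%, and AKR1C2 and AKR1C3 91.3%. How fragments matching more than 1 of them were divided was not given in the sources used here, so their separate values are uncertain. AKR1C2 held 75.1 CPM at 0 h, 63.5 and 109 at 4 h, 62.8 at 12 h, and 34.8 and 31.6 CPM at 36 h. Its 36 h libraries were below all others, and it fell by 1.38 on the log2 scale against 4 h (SE 0.256, edgeR adjusted p = 0.00458). Without the second 4 h library that change was -0.89, under 2-fold (edgeR adjusted p = 0.00112), and without the first it was -1.72. The shared row of AKR1C1, AKR1C3 and AKR1E2 held 108 CPM at 0 h, 88.7 and 137 at 4 h, 75.8 at 12 h, and 115 and 112 CPM at 36 h. Its 36 h values lay between the 4 h ones, with a log2 difference of 0.00 (SE 0.213, adjusted p = 0.997 by edgeR). Leaving out the second 4 h library made the shared row 0.40 (adjusted p = 0.0488), and leaving out the first made it -0.28 (adjusted p = 0.134). When both rows were added together, the sum was 152 and 246 CPM at 4 h and 149 and 143 CPM at 36 h. The log2 difference of the sum was -0.45 (edgeR adjusted p = 0.153) and did not pass the test. Against 0 h, AKR1C2 changed by -1.18 (edgeR adjusted p = 0.0291) and the sum by -0.32 (edgeR adjusted p = 0.440).

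GCLC is the catalytic subunit and GCLM the modifier subunit of glutamate-cysteine ligase, the rate-limiting enzyme of glutathione synthesis. GCLC (hg19 chr6:53362140-53409831) held 219 CPM at 0 h, 147 and 168 at 4 h, 72.9 at 12 h, and 58.8 and 47.0 CPM at 36 h. Each later time lay below the one before it without overlap. Against 0 h the log2 fold change was -1.58 at 12 h (SE 0.247, edgeR adjusted p = 0.0117) and -2.04 at 36 h (SE 0.202, edgeR adjusted p = 4.81e-04). Against 4 h it was -1.57 at 36 h (SE 0.176, edgeR adjusted p = 4.89e-04). GCLM (hg19 chr1:94352590-94375222) held 63.7 CPM at 0 h, 72.5 and 67.4 at 4 h, 52.6 at 12 h, and 48.0 and 64.0 CPM at 36 h. The 36 h libraries of GCLM straddled both the 0 h and the 12 h values, and the log2 change against 4 h was -0.32 (SE 0.184, adjusted p = 0.196 by edgeR). Under scaling by library totals alone, GCLM was called lower at -0.59 (adjusted p = 0.0321). The ratio of GCLC to GCLM fragments within a library, a measure chosen after the values were seen, was 3.43 at 0 h, 2.02 and 2.49 at 4 h, 1.39 at 12 h, and 1.22 and 0.734 at 36 h. An exact permutation test of 36 h against 4 h gave 2-sided p = 0.333, the smallest that 2 against 2 libraries allow.

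**Figure D2:**
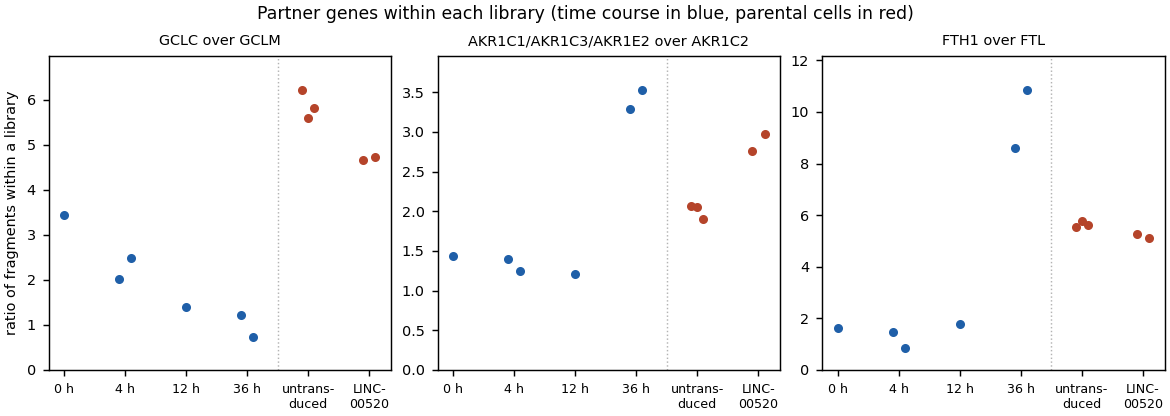
Ratio of fragments between partner genes within each library (vertical axis, from 0), with time points and parental groups along the horizontal axis and 1 point per library. GCLC over GCLM is 3.43 at 0 h and 1.22 and 0.734 at 36 h, the shared AKR1C row over AKR1C2 is 3.29 and 3.53 at 36 h, and FTH1 over FTL is 8.60 and 10.9 at 36 h.

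TXNRD1, the cytosolic thioredoxin reductase (hg19 chr12:104606488-104757846), held 151 CPM at 0 h, 190 and 252 at 4 h, 90.5 at 12 h, and 81.3 and 74.4 CPM at 36 h. The 36 h libraries were below all others and the 4 h libraries above all others. The log2 fold change at 36 h was -1.51 against 4 h (SE 0.183, edgeR adjusted p = 7.19e-04) and -0.96 against 0 h (edgeR adjusted p = 0.0184). The call against 0 h was lost without the second 36 h library (adjusted p = 0.0709). A lincRNA row at the same locus, named linc-TXNRD1-AS, held 69.9% to 115% as many fragments as TXNRD1. Since the counting is not stated to use strand, the 2 cannot be told apart, and that row also fell against 4 h, by 1.45 on the log2 scale (SE 0.147, edgeR adjusted p = 3.14e-04). Another row of that name, scarce at a mean of 5.12 CPM at 4 h, did not pass (-0.75, edgeR adjusted p = 0.0743). With TXNRD1 and both lincRNA rows added together, the change was -1.47 (edgeR adjusted p = 3.82e-04). EID3, whose row lies in the same locus, was not added. On FPKM the fall of TXNRD1 was larger, at a log2 value of -2.24 in the authors' deposited table.

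SRXN1, the sulfiredoxin that restores over-oxidised peroxiredoxins, shares its row with SCRT2 (hg19 chr20:627270-656823). The row held 81.1 CPM at 0 h, 118 and 123 at 4 h, 76.7 at 12 h, and 44.6 and 46.1 CPM at 36 h. Its 4 h libraries were the highest and its 36 h libraries the lowest. It fell by 1.41 on the log2 scale from 4 h to 36 h (SE 0.151, edgeR adjusted p = 4.09e-04) and by 0.84 from 0 h (edgeR adjusted p = 0.0146). Against 0 h the call was lost without either 36 h library (adjusted p = 0.102 without the first and 0.0860 without the second).

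HMOX1, the inducible enzyme that splits haem into biliverdin, iron and carbon monoxide (hg19 chr22:35777087-35790209), was scarce. It had 79 fragments at 0 h (1.38 CPM), 96 and 174 at 4 h (4.98 and 7.38 CPM), 59 at 12 h (2.09 CPM), and 80 and 42 at 36 h (3.86 and 3.99 CPM). The 4 h libraries were the highest and the single 0 h library the lowest. HMOX1 rose 4.47-fold at 4 h (log2 2.16, SE 0.365, edgeR adjusted p = 0.0169) and was also higher at 36 h than at 0 h (log2 1.498, SE 0.368, edgeR adjusted p = 0.0263). That 36 h call was lost without the first (adjusted p = 0.0503) or the second (0.0525) 36 h library. Between 36 h and 4 h the log2 difference was -0.66 (adjusted p = 0.101 by edgeR), which became -0.92 (adjusted p = 0.0132) without the first 4 h library.

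FTH1, the heavy chain of ferritin, oxidises and stores iron (hg19 chr11:61717356-61735132). It held 732 CPM at 0 h, 704 and 459 at 4 h, 683 at 12 h, and 1484 and 1852 CPM at 36 h. Both 36 h libraries lay above every earlier one, and the rise was 1.52 on the log2 scale against 4 h (SE 0.236, edgeR adjusted p = 0.00210) and 1.19 against 0 h (edgeR adjusted p = 0.0289). Under scaling by library totals alone the change against 0 h was 0.83 and did not pass (adjusted p = 0.0723). The light chain FTL, the partner in the ferritin shell and also a known NRF2 target, went the other way, with 481 and 528 CPM at 4 h and 173 and 171 CPM at 36 h. FTL fell by 1.56 on the log2 scale (SE 0.152, edgeR adjusted p = 2.64e-04). FTH1 held 1.46 and 0.869 times the fragments of FTL at 4 h and 8.60 and 10.9 times at 36 h (exact permutation test, 2-sided p = 0.333, the smallest possible). Both ferritin genes have many processed pseudogenes, so fragments shared with those copies make their counts uncertain.

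The 3 comparisons with 0 h share 1 library and are given side by side. At 4 h only HMOX1 passed of the 9 rows, where 3.15% of all genes were called higher, 3.09% lower and 6.24% either way, and the members' median was 0.15 against 0.01 over all genes. The values of TXNRD1 (0.55, edgeR adjusted p = 0.183) and SRXN1 (0.57, edgeR adjusted p = 0.109) did not pass. Without the first 4 h library, the changes were 0.74 for TXNRD1, 0.60 for SRXN1, 0.54 for AKR1C2 and -0.67 for FTH1. That fit leaves 1 library at 4 h and more of all genes passed in it too, so its calls are not read. At 12 h only GCLC passed, and lower, where 1.20% of all genes were called lower, 3.04% higher and 4.24% either way. The median was -0.28 against -0.03. At 12 h TXNRD1 changed by -0.74 without the first 4 h library and by -0.71 without the second, in fits where more of all genes passed too. At 36 h 5 rows were lower and 2 higher, where 9.36% of all genes were called lower, 9.99% higher and 19.4% either way. The median was -0.84 against -0.08, and 3 rows (NQO1, GCLC and AKR1C2) were called and at least 2-fold lower, as were 6.55% of all genes. Under limma on log2(FPKM + 1), only NQO1, GCLC and TXNRD1 passed at 36 h against 0 h, and neither GCLC at 12 h (adjusted p = 0.0699) nor HMOX1 at 4 h (adjusted p = 0.0935) did. Scaling by library totals alone changed the split of all calls at 36 h from 1556 higher and 1458 lower to 1016 higher and 3740 lower.

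**Figure D3:**
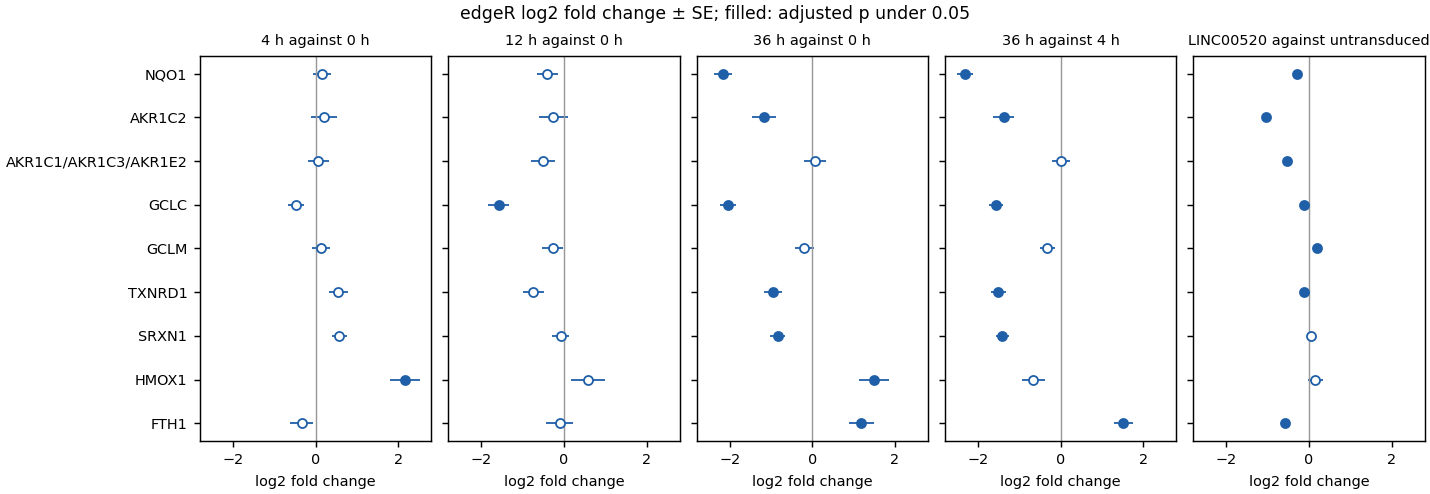
The edgeR log2 fold change (horizontal axis) of each member row, with its standard error as the bar, in 5 comparisons; filled points have an adjusted p under 0.05. At 36 h against 4 h the points run from -2.31 (NQO1) to 1.52 (FTH1), and with LINC00520 from -1.05 (AKR1C2) to 0.20 (GCLM).

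With LINC00520, 6 of the 9 member rows were lower, GCLM was higher, and SRXN1 and HMOX1 did not pass the test. Of 12790 genes tested 24.8% were called lower, 25.2% higher and 50.0% either way by edgeR, so a call alone was common in this comparison. The members' median log2 fold change was -0.13, against 0.00 over all genes, whose median absolute change was 0.14. Libraries did not overlap between the groups in 6 of the 9 rows, as in 66.5% of all genes tested.

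The largest changes among the members were in the AKR1C genes and FTH1. AKR1C2 held 71.7, 71.9 and 76.5 CPM in the untransduced libraries and 36.8 and 33.96 CPM with LINC00520, with no overlap. It fell by 1.05 on the log2 scale (SE 0.0488, edgeR adjusted p = 1.75e-14). The shared AKR1C1/AKR1C3/AKR1E2 row held 148, 148 and 145 CPM against 102 and 101 CPM, a change of -0.54 (SE 0.0328, edgeR adjusted p = 1.97e-12). Added together, both rows changed by -0.69 (edgeR adjusted p = 7.90e-15), so here the sum passed the test as well. FTH1 held 3313, 3357 and 3536 CPM against 2299 and 2271 CPM, without overlap, and fell by 0.57 (SE 0.0301, edgeR adjusted p = 1.43e-13). FTL was lower too, at 598, 583 and 629 CPM against 435 and 444 CPM (log2 -0.46, SE 0.0315, edgeR adjusted p = 1.94e-11).

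The remaining members moved less. NQO1 held 598, 601 and 603 CPM against 492 and 494 CPM, and fell by 0.28 on the log2 scale (SE 0.0273, edgeR adjusted p = 6.10e-09). The glutamate-cysteine ligase subunits went opposite ways, GCLC from 227, 230 and 228 CPM to 212 and 207 CPM and GCLM from 36.6, 41.1 and 39.2 CPM to 45.6 and 43.8 CPM. Neither overlapped between groups. GCLC changed by -0.12 (SE 0.0292, edgeR adjusted p = 0.00113) and GCLM by 0.20 (SE 0.0537, edgeR adjusted p = 0.00316), the latter not past the test without the first LINC00520 library (adjusted p = 0.0560). Their within-library ratio was 6.22, 5.59 and 5.81 in untransduced cells and 4.66 and 4.73 with LINC00520 (exact permutation test, 2-sided p = 0.2, the smallest that 3 against 2 allow). TXNRD1 held 79.9, 75.7 and 83.2 CPM against 76.0 and 68.8 CPM. Its groups overlapped, and its change of -0.13 (edgeR adjusted p = 0.0160) was lost without the second LINC00520 library (adjusted p = 0.378) or the third untransduced one (0.0841). SRXN1 (122, 120 and 119 against 128 and 122 CPM) and HMOX1 (2.06, 1.80 and 2.03 against 2.43 and 1.92 CPM) overlapped between the groups and did not pass, with log2 differences of 0.05 (edgeR adjusted p = 0.204) and 0.15 (edgeR adjusted p = 0.526).

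**Figure D4:**
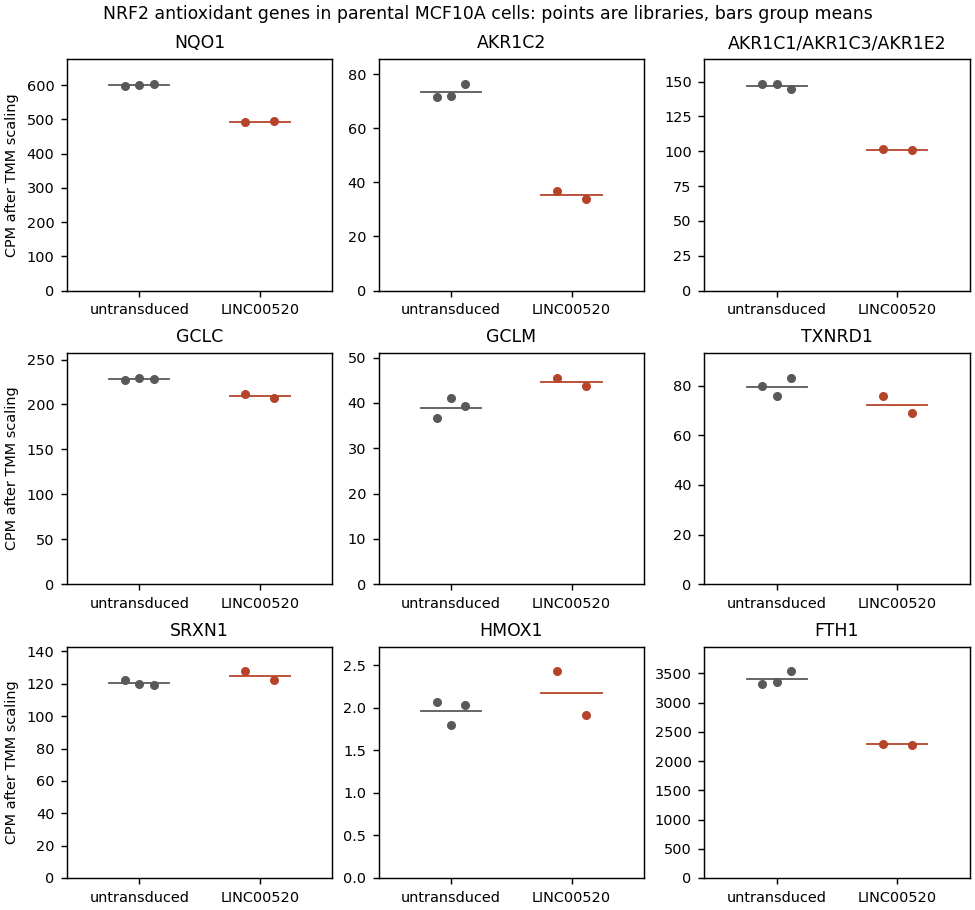
CPM after TMM scaling (vertical axis, from 0) of the 9 member rows in untransduced and LINC00520-transduced parental cells; points are libraries and bars are group means (3 and 2 libraries). AKR1C2 lies at 71.7 to 76.5 CPM without and 33.96 to 36.8 CPM with LINC00520, and TXNRD1, SRXN1 and HMOX1 overlap between the groups.

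The rest of the pathway was read from 7 lists of genes by role, holding 78 tested rows in the time course and 76 in parental cells. From 4 h to 36 h 39 of these rows were lower and 4 higher (median -0.52), where 20.5% of all genes were lower and 18.8% higher (median -0.04). With LINC00520 48 were lower and 7 higher (median -0.16), where 24.8% of all genes were lower and 25.2% higher (median 0.00). Against 0 h, 20 were lower and 6 higher at 36 h, where 9.36% of all genes were lower and 9.99% higher. At 12 h 3 were lower and 2 higher, where 1.20% of all genes were lower and 3.04% higher. At 4 h 1 was lower and 3 higher, where 3.09% of all genes were lower and 3.15% higher. The higher counts at 36 h include the shared row of ME1 and PCDHB16, which passed the filter only through its 36 h libraries. The lower count at 36 h against 0 h includes SESN3, which passed it only through the 0 h library. None of the 7 lists holds a member. The lists were chosen with earlier results of these data known, so their counts beside the shares of all genes are descriptions.

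Among 12 regulators of NRF2, 3 passed the test at 36 h against 4 h by edgeR, each of them lower, against 39.4% of all genes called either way and 20.5% lower. NFE2L2 itself held 99.8 and 70.4 CPM at 4 h and 89.8 and 107 CPM at 36 h, overlapping, with a log2 change of 0.21 (adjusted p = 0.442 by edgeR). KEAP1 held 88.9 and 97.8 CPM at 4 h and 80.5 and 62.7 CPM at 36 h (-0.38, adjusted p = 0.121 by edgeR). The small MAF gene MAFK fell by 1.18 on the log2 scale (edgeR adjusted p = 0.00284), having risen by 1.46 from 0 h to 4 h (edgeR adjusted p = 0.0170). SQSTM1, the autophagy adaptor that binds KEAP1, fell by 0.78 against 4 h (edgeR adjusted p = 0.00477). It held 239 CPM at 0 h, 349 and 361 at 4 h, and 215 and 197 CPM at 36 h. The repressor BACH1 held 106 CPM at 0 h, 135 and 151 at 4 h, and 183 and 187 CPM at 36 h. It did not pass the test at 36 h against 4 h. Against 0 h it was higher at 36 h (log2 0.81, edgeR adjusted p = 0.0221), the only call among the 12 regulators there. With LINC00520, 6 regulators were lower and 2 higher, NFE2L2 changing by -0.19 (edgeR adjusted p = 2.32e-05), SQSTM1 by -0.45 (edgeR adjusted p = 1.31e-11) and BACH1 by 0.12 (edgeR adjusted p = 0.0304).

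At 36 h against 4 h, 20.5% of all genes were lower, 18.8% higher and 39.4% called either way. Genes of glutathione synthesis, use and export were lower in 11 and higher in 1 of 18 tested rows in that comparison. The cystine transporter subunits SLC3A2 (316 and 397 CPM at 4 h, 90.2 and 89.4 CPM at 36 h) and SLC7A11 (109 and 154 CPM, then 55.8 and 47.5 CPM) were among them, with edgeR log2 changes of -1.99 and -1.34. The conjugate exporter ABCC3 changed by -1.91. Detoxication genes were lower in 11 and higher in 1 of 15 rows (median -1.24). ALDH3A1, an aldehyde dehydrogenase, held 99.1 and 121 CPM at 4 h and 3.72 and 3.89 CPM at 36 h, a log2 change of -4.86 (SE 0.207, edgeR adjusted p = 7.89e-06). PIR, an iron-binding nuclear protein, changed by -2.12 and ALDH3A2 by -1.29. Of 8 rows for iron and haem 6 passed the test, each lower, among them the transferrin receptor TFRC at -1.18, ferrochelatase (FECH) at -1.16 and HMOX2, the constitutive haem oxygenase, at -1.01. At 36 h against 0 h, 2 of these 8 rows were lower and 0 higher, where 9.36% of all genes were lower and 9.99% higher. HMOX2 held 32.8 CPM at 0 h, 53.7 and 66.5 at 4 h, and 32.8 and 26.6 CPM at 36 h. The thioredoxin and peroxiredoxin list had 3 calls of 12, each lower, led by PRDX4 at -0.82. That is near the 20.5% of all genes called lower and under the 39.4% called either way. TXNIP, the thioredoxin-binding inhibitor of the same list, lacked an OK status in the time course and was not tested. It held 52.8 and 68.2 CPM at 4 h, 76.8 at 12 h, and 1618 and 1754 CPM at 36 h, and was listed at 0 at 0 h. The NADPH list had 4 lower and 1 higher of 9. Its higher row, shared by ME1 and PCDHB16, was scarce, averaging 2.01 CPM at 4 h and 5.39 CPM at 36 h. That row reached 1 FPKM only at 36 h (1.47 and 1.07 FPKM). It passed the filter only through those libraries, so its call is not read as a result. The row of ME1 alone lay at 90.3 and 75.7 CPM at 4 h and 65.5 and 63.3 CPM at 36 h. The superoxide and peroxide list had 2 lower and 1 higher of 6. The higher one in the last list was the mitochondrial superoxide dismutase SOD2, with 1116 and 1515 CPM at 4 h and 4382 and 4802 CPM at 36 h (log2 1.80, edgeR adjusted p = 4.91e-04).

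With LINC00520 the same lists gave 12 lower and 1 higher of 17 for glutathione, 9 and 1 of 15 for detoxication, 5 and 2 of 8 for iron and haem, and 4 and 1 of 5 for superoxide and peroxide. The thioredoxin list had 8 calls of 13 and the NADPH list 6 of 8, each of them lower, where 50.0% of all genes were called either way and 24.8% lower. One of the thioredoxin calls was the inhibitor TXNIP, averaging 751 CPM without and 460 CPM with LINC00520 (log2 -0.71, edgeR adjusted p = 7.12e-13). SOD2 held 361, 382 and 391 CPM without and 195 and 188 CPM with LINC00520 (log2 -0.98, SE 0.0345, edgeR adjusted p = 7.62e-17). ALDH3A1 changed by -0.70 (79.4, 82.7 and 80.9 CPM against 48.5 and 51.4 CPM), CYP1B1, a cytochrome P450, by -0.88 and the transketolase TKT by -0.57, all past the test by edgeR. The cystine transporter subunit SLC7A11 lay higher with LINC00520, at 24.8, 25.5 and 24.5 CPM without and 35.2 and 32.9 CPM with it. The summed epithelial markers lay at 8078 to 8369 CPM without and 8388 to 8630 CPM with LINC00520, 3 of 10 being called higher and 4 lower.

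The genes whose level followed NQO1 most closely over the 6 time-course libraries were taken from 7496 rows reaching 10 FPKM. They were FTL (Pearson r 0.997 on log2(FPKM + 1)), the sulfate transporter SLC26A2 (0.997), ZDHHC6 (0.997), the serine synthesis enzyme PHGDH (0.996) and the volume-regulated channel subunit LRRC8D (0.996). FTL went from 719 FPKM at 0 h to 264 and 282 FPKM at 36 h, and PHGDH from 33.0 to 10.4 and 10.9 FPKM. In all, 524 of the 7496 rows had an r over 0.9 and 173 an r over 0.95. Among the members, AKR1C2 (0.946), SRXN1 (0.940), TXNRD1 (0.924) and GCLC (0.855) followed NQO1, while GCLM (0.519) and HMOX1 (0.02) did so less, and the shared AKR1C row (-0.17) and FTH1 (-0.94) had negative values. These 6 points share libraries and depth, 2 of them stand at 36 h, and the values are descriptions.

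In the authors' deposited table of calls, with a q-value under 0.05, the same 5 rows were lower and FTH1 higher at 36 h against 4 h, where 28.1% of that table's tested rows passed. Against 0 h the authors' deposited table had 3 member rows lower and 2 higher at 36 h (16.3% of rows), GCLC alone at 12 h (7.01%), and HMOX1 and SRXN1 higher at 4 h (8.97%). With LINC00520 the authors' deposited table called 3 members, all lower, where 12.9% of rows passed. These were the shared AKR1C row (log2 -0.59), AKR1C2 (-1.05) and FTH1 (-0.57). NQO1, at -0.28 in the authors' deposited table, had a q-value of 0.0769 there.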

How the data were processed

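Estimated counts of fragments per gene row and FPKM were taken from the Cuffdiff tables that the authors deposited, 1 per experiment, and log2 fold changes, p-values and q-values from the deposited tables of calls. Some log2 values deposited for the time course were implausibly large, so that column was read as a score, except for the members, whose values matched their FPKM. CASAVA 1.4, TopHat, Cuffdiff and hg19 were named in the submitters' processing notes; for other versions, the annotation, multiply mapped reads and strand, no setting is given in the sources used here. Of 13 samples, 11 were matched to columns by name. Another 7 libraries, all of the over-expression experiment, matched no label and stayed unused.

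Counts were rounded, 92.4% to 99.9% of each library's values being whole as deposited. Rows were kept if FPKM reached 1 in 2 libraries of the parental cells or 1 library of the time course, with status OK throughout. With TMM scaling, edgeR 4.0.16 (R 4.3.3) was run by glmQLFit and glmQLFTest with 1 coefficient per group, 2-sided, with Benjamini-Hochberg adjustment over all genes and a threshold of 0.05. The SE is the log2 fold change over the square root of F. Groups with 1 library were assumed to vary like the pairs; the common coefficient of variation was 0.0249 in parental cells and 0.162 in the time course. The script was tested on simulated data. Alternatives used DESeq2 1.42.0 and limma 3.58.1. Between replicates, the chi-square of a gene's counts over its expectation under counting noise had a median of 1.32 to 2.03 in parental cells, 4.65 at 36 h and 13.7 at 4 h, so no libraries were merged. Same-numbered libraries did not pair (correlations of deviations -0.06, -0.05 and 0.10).

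The members and lists were chosen with earlier results of these data known. Named genes were every member, NFE2L2, KEAP1, BACH1 and SQSTM1, up to 4 genes past the test with the smallest p from each list in a comparison, and the 5 genes most like NQO1. LINC00520 was read from linc-TBPL2-2, the lincRNA row at its position on chromosome 14. Fragments are not independent molecules without molecular identifiers, and depth limits HMOX1 most. Summaries used Python 3.11.15 with pandas 2.3.3 and scipy 1.17.1.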

Additional observations from a re-analysis of the deposited data

How the results depend on the processing

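Depth limits HMOX1 most, with 42 to 174 fragments a library, and the 0 h and 12 h groups have 1 library each. Over the members' fold changes, 422 alternative values kept their direction and side of the threshold, 26 lost the call, 10 gained it and 11 changed sign. Every sign change was in a value that had not passed the test. For the shared AKR1C row, scaling by library totals alone gave -0.25 at 36 h against 4 h, -0.28 at 36 h against 0 h and -0.037 at 4 h, and no FPKM filter gave -0.047 at 36 h against 4 h. With 1 library left out, it ran from -0.28 (no first 4 h library) to 0.40 (no second 4 h library) at 36 h against 4 h, and from -0.28 (no second) to 0.34 (no first) at 4 h. At 4 h the same pair gave -0.0099 to 0.29 for NQO1 and -0.24 to 0.54 for AKR1C2. GCLM at 36 h against 0 h ran from -0.41 to 0.0089 (no first 36 h library), and HMOX1 with LINC00520 from -0.034 (no first LINC00520 library) to 0.31.

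Counts of member rows past the test at 36 h against 0 h dropped to 3 under limma on log2(FPKM + 1) and 3 on log2(FPKM + 0.1), and to 0 and 0 at both 12 h and 4 h, where limma had 1 row at 12 h and 3 at 4 h with an unadjusted p under 0.05 and DESeq2 kept 1 at each. With limma, the rows lost at 36 h were HMOX1 (adjusted p = 0.0841 and 0.0728), SRXN1 (0.0545 and 0.0530), AKR1C2 (0.115 and 0.127) and FTH1 (0.144 and 0.169). GCLC at 12 h had adjusted p = 0.0699 and 0.0779 and HMOX1 at 4 h 0.0935 and 0.0978 by limma. All genes past the test at 36 h against 0 h numbered 3014, against 1554 and 1320 under limma, 4756 under library totals, 5066 with no filter and 5885 with the libraries of the 2 groups only. At 12 h 661 became 223 and 252 under limma and 1717 with no filter, and at 4 h 972 became 180 and 158 and 2794. Leaving out 1 library gave 6 to 7 member rows and 4792 to 6319 genes with LINC00520, and 6 to 7 and 3549 to 7385 at 36 h against 4 h. Against 0 h it gave 4 to 7 and 1838 to 6101 at 36 h, 1 to 2 and 743 to 2807 at 12 h, and 1 to 5 and 1020 to 4375 at 4 h. The cause was not tested.

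A replicate block gave 5500 genes and 6 member rows with LINC00520, TXNRD1 no longer passing (-0.10, adjusted p = 0.0982), and 6716 genes and 6 member rows at 36 h against 4 h. It changed no other call among the members. TXNRD1 with LINC00520 was also lost under limma (adjusted p = 0.0568 and 0.0576). The sums of the AKR1C rows and of the TXNRD1 rows were added after seeing the data. For AKR1C2 at 36 h against 0 h the sum was -0.32 (adjusted p = 0.440), and for TXNRD1 with LINC00520 -0.17 (adjusted p = 3.09e-04).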
